A study of Mus musculus with 24 samples.

Results

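The genes of fatty acid synthesis were examined in the gastrocnemius, a muscle of the hind leg, of mice fed an obesogenic diet with or without either of 2 additions. The set was the transcription factor Srebf1 and 9 genes of the lipogenic programme, namely Scd1, Scd2, Fasn, Acaca, Acacb, Acly, Elovl6, Thrsp and Mlxipl. They were chosen by name, through the gene name on the array or the current symbol of the probe's accession, and they are 10 of the 21377 gene symbols on the array. They were represented by 17 of the 41174 different probes. Of these, 11 probes for 9 genes were bright enough to be tested, among 15958 such probes in all, while all probes of Acaca, 1 of Fasn and 1 of Acly were too dim.

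New fatty acids are built from acetyl-CoA. Acly makes this substrate in the cytosol from citrate, Acaca and Acacb carboxylate it to malonyl-CoA, and Fasn extends it to palmitate. Elovl6 lengthens palmitate, and the desaturases Scd1 and Scd2 place a double bond in the saturated chain. The transcription of these genes is driven by SREBP-1, the product of Srebf1, which responds to insulin, and by ChREBP, the product of Mlxipl, which responds to glucose, while Thrsp is a small protein that favours lipogenesis. In liver, long-chain polyunsaturated fatty acids are known to restrain SREBP-1. In skeletal muscle the malonyl-CoA made by Acacb is best known as an inhibitor of the entry of fatty acids into mitochondria.

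All animals were male C57BL/6N mice that were 3 months old at the start and were fed their diet for 8 weeks. The cHF diet held 35% lipids, mostly from corn oil. For cHF+F, 15% of these lipids gave way to a concentrate of n-3 LC-PUFA (marine polyunsaturated fats), of which 46% was DHA and 14% EPA. The cHF+ROSI diet contained 10 mg rosiglitazone per kg, a PPARγ agonist used against diabetes. Every animal, in each of the 3 groups, was fasted for 10 hours and then re-fed standard Chow overnight before dissection, so that the test diet was not the last meal. Each of the 24 arrays carried the RNA of 1 mouse in Cy5 and the same pooled reference in Cy3, and there were 8 arrays in each group. Per the methods this pool also held RNA of mice on a higher rosiglitazone dose. Values are log2 ratios of Cy5 over Cy3, so a value of a probe is relative to the pool, and levels of different probes cannot be set against each other. Mice were caged in pairs and the labels do not say which arrays share a cage, so p-values measure the spread between these animals.

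On 23 arrays, 30.4% to 61.3% of the spots were well above background in the Cy5 channel, and on the cHF+ROSI array of slide 4 it was 91.1%. Each of the 8 slides held 1 array of each group, always in the same place, so place on the slide and diet cannot be told apart. Of 8 genes that mark gastrocnemius muscle, all 8 were well above background on all 24 arrays. Transcripts of other tissues were present too: 8 of 10 adipocyte markers, 8 of 10 liver markers and 2 of 3 brown fat markers were bright enough to be tested. Of the brown fat markers, Ucp1, which defines brown fat, was well above background on 2 arrays, Cidea on 24 and Elovl3, which was not tested, on 6. In such whole tissue, fewer cells of a type and less RNA per cell cannot be told apart.

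Promoters of 8 of the 10 genes, 11 in all because Srebf1 has 3 and Mlxipl 2, were matched in RefSeq (mouse build GRCm38.p6). The 250 bases before each start were searched on both strands for TCACNCCAC (a sterol regulatory element, to which SREBP binds), CACGTG (the E-box) and CCAAT (bound by NF-Y, a partner of SREBP). CCAAT was found in 6 of the 11 promoters and in 33.8% of all 32851 mouse promoters, the E-box in 1 of 11 against 6.02%, and the sterol element in 1 of 11 against 1.05%. The promoter of Acacb and another promoter of Srebf1 also held CCAAT, beginning 87 and 166 bases before the start, and are not shown. The sequences of 1 promoter of Srebf1, of 2 of its classical targets and of both start sites of Mlxipl are shown, with matches in capitals. A match is a description of letters only.
Srebf1, chr11:60210472-60210721, minus strand: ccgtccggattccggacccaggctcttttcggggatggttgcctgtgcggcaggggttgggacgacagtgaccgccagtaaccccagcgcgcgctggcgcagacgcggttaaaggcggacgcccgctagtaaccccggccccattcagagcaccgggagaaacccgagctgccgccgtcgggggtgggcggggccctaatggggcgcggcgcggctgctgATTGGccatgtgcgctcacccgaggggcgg
Fasn, chr11:120824548-120824797, minus strand: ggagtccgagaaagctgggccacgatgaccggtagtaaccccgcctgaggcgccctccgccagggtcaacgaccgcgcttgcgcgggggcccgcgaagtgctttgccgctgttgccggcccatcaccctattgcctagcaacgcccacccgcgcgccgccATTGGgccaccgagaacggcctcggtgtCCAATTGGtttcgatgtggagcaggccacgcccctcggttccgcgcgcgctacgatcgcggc
Thrsp, chr7:97417551-97417800, minus strand: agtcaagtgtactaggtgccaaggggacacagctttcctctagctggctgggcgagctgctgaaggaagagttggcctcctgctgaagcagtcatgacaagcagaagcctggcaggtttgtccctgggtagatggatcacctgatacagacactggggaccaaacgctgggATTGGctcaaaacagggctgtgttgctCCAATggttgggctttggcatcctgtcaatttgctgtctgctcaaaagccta
Mlxipl, first start, chr5:135089640-135089889, plus strand: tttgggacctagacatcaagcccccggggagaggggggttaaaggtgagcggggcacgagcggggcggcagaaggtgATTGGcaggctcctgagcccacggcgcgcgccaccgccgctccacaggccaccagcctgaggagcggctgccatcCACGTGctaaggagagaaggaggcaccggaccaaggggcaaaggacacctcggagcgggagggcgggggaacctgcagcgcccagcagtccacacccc
Mlxipl, second start, chr5:135106641-135106890, plus strand: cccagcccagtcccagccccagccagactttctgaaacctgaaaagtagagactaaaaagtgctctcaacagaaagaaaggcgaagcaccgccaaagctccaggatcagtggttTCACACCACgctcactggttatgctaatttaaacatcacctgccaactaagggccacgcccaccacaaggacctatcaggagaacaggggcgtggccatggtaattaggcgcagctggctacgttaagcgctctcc
In Fasn the matches to CCAAT begin 90, 62 and 59 bases before the start, and the last pair, on opposite strands, overlap. In Thrsp they begin 79 and 52 bases before the start, and in the Srebf1 promoter shown 30 bases before it.

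Across the 9 measurable genes the desaturase Scd1 and the regulator Srebf1 had the largest differences in both comparisons with cHF+F. In cHF+ROSI versus cHF the largest were those of Srebf1 (0.30) and Scd2 (0.21). No gene passed the multiple-testing threshold in the comparison of any 2 groups. By limma with Benjamini-Hochberg adjustment over all 15958 probes, 0 of the 9 genes had an adjusted p under 0.05 in cHF+F versus cHF, in cHF+ROSI versus cHF or in cHF+F versus cHF+ROSI, as did 0% of all probes in each. With an unadjusted p under 0.05 there were 2 of 9 genes in cHF+F versus cHF (Scd1 and Srebf1), where 1094 probes, 6.86% of all, met this limit. There were 2 of 9 in cHF+ROSI versus cHF (Srebf1 and Acacb; 750 probes, 4.7% of all) and 2 of 9 in cHF+F versus cHF+ROSI (Scd1 and Srebf1; 1065 probes, 6.67% of all). The median difference of the 9 genes was 0.01 in cHF+F versus cHF, 0.07 in cHF+ROSI versus cHF and -0.08 in cHF+F versus cHF+ROSI, against medians over all probes of 0.00, -0.01 and 0.01.

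**Figure D1:**
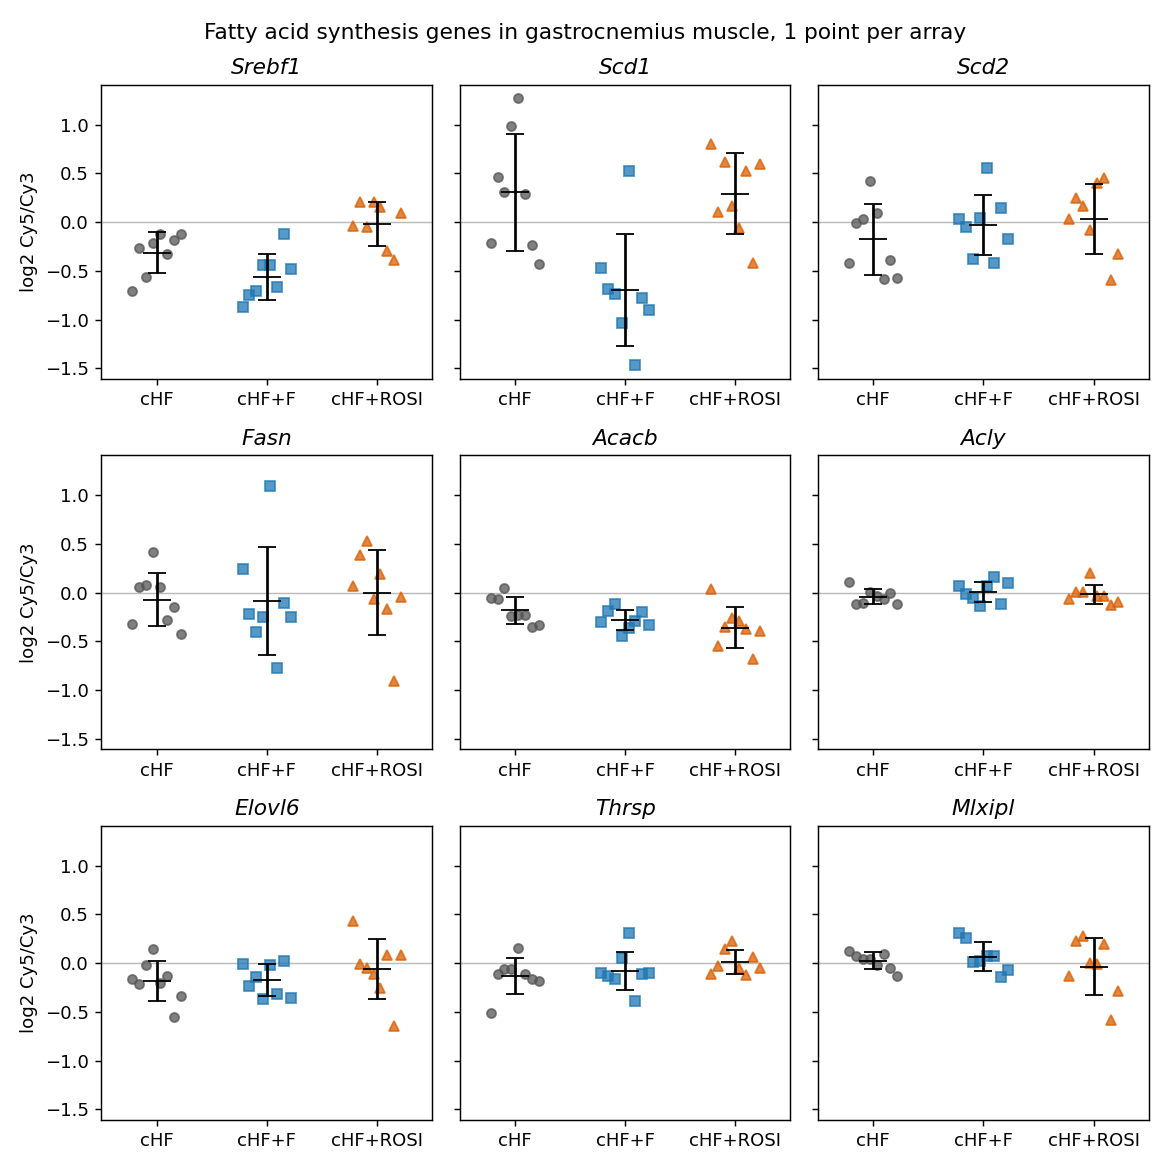
Log2 Cy5/Cy3 ratio (vertical axes, common scale) of the 9 measurable genes in the 3 diet groups, 1 point per array (8 per group), with bars giving the mean ± SD. In Scd1, 7 of the 8 cHF+F points lie below all cHF points, and the means of Srebf1 run from -0.56 in cHF+F over -0.31 in cHF to -0.02 in cHF+ROSI.

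Scd1, the main desaturase of saturated fatty acids, was probed at chr19:44448208-44448267 (build mm8, the build of the array files). In the cHF mice its log2 ratio ran from -0.43 over a median of 0.30 to 1.27. In the cHF+F mice it ran from -1.47 over a median of -0.76 to 0.53, and in the cHF+ROSI mice from -0.42 over a median of 0.34 to 0.80. Thus 7 of 8 cHF+F arrays lay below the lowest cHF array and below the lowest cHF+ROSI array, whereas the remaining cHF+F array lay inside both ranges, and the cHF and cHF+ROSI groups covered much the same range. The mean was -0.69 ± 0.57 (SD, n = 8) in cHF+F against 0.30 ± 0.60 in cHF, a difference of -0.998 (SE 0.24; 95% confidence interval -1.50 to -0.50; 2.00-fold lower; limma adjusted p = 0.274). This was the 20th smallest p of the comparison.

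Against cHF+ROSI the difference of Scd1 in cHF+F was -0.98 (interval -1.48 to -0.49; limma adjusted p = 0.434). The cHF+ROSI and cHF mice differed by -0.01 (interval -0.51 to 0.48; limma adjusted p = 0.999), so that the order of the means was cHF+F, then cHF+ROSI and cHF, which did not differ beyond their spread. Within slides, Scd1 was lower in cHF+F than in cHF on 8 of 8 slides, by -2.02 to -0.26, and lower than in cHF+ROSI on 7 of 8 slides. With the slide as a block the adjusted p was 0.120 for the first and 0.124 for the second. On the Cy3 channel alone, which held the same pool everywhere, the Scd1 signal differed by 0.06 and 0.02.

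Srebf1, which encodes SREBP-1, was probed at chr11:60015907-60015966 (mm8). Its log2 ratio in cHF mice ran from -0.71 over a median of -0.24 to -0.12. In cHF+F mice it ran from -0.87 over a median of -0.58 to -0.12, and in cHF+ROSI mice from -0.39 over a median of 0.03 to 0.21. The cHF+F and cHF groups overlapped except for 2 low cHF+F arrays, while 6 of 8 cHF+ROSI arrays were above the highest cHF array and 7 of 8 cHF+F arrays were below the lowest cHF+ROSI array. The order of the means was cHF+F (-0.56 ± 0.24), cHF (-0.31 ± 0.21) and cHF+ROSI (-0.02 ± 0.23; SD, n = 8 each), and no step passed the adjusted threshold.

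The difference of Srebf1 between cHF+F and cHF was -0.25 (interval -0.46 to -0.03; limma adjusted p = 0.661). That between cHF+ROSI and cHF was 0.30 (interval 0.08 to 0.51; limma adjusted p = 0.996), and that between cHF+F and cHF+ROSI was -0.54 (interval -0.76 to -0.33; limma adjusted p = 0.379), the smallest p of all probes in that comparison. Each of the 3 differences had the same sign on 7 of 8 slides. With the slide as a block the adjusted p-values were 0.274, 0.335 and 0.0693. Slide 7 was the exception in all 3. Without the cHF+F array or the cHF+ROSI array of that slide the limma adjusted p of cHF+F versus cHF+ROSI was 0.0452 in either case. There 1 and 2 of the 15958 probes were called. Over the 24 fits without 1 array this adjusted p ranged from 0.0452 to 0.673. The largest unadjusted limma p, 8.62e-05, was that without the cHF+ROSI array of slide 4, which held the highest Srebf1 value. In cHF+F versus cHF the unadjusted p of Srebf1 was no longer under 0.05 in 6 of 24 fits without 1 array (cHF of slide 5, 7 or 8, cHF+F of slide 1, 2 or 3), nor with median centring or on slides 4 to 8 alone. In cHF+ROSI versus cHF it stayed under 0.05 in 24 of 24 fits without 1 array, but not with median centring, from Cy5 alone or on slides 4 to 8. In that comparison the difference was 0.15 (limma adjusted p = 0.742) on slides 4 to 8, whose arrays had, within each group, more spots well above background in Cy5 than those of slides 1 to 3, and 0.19 (limma adjusted p = 0.798) from Cy5 alone, while the Cy3 signal of the pool differed by -0.14.

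**Figure D2:**
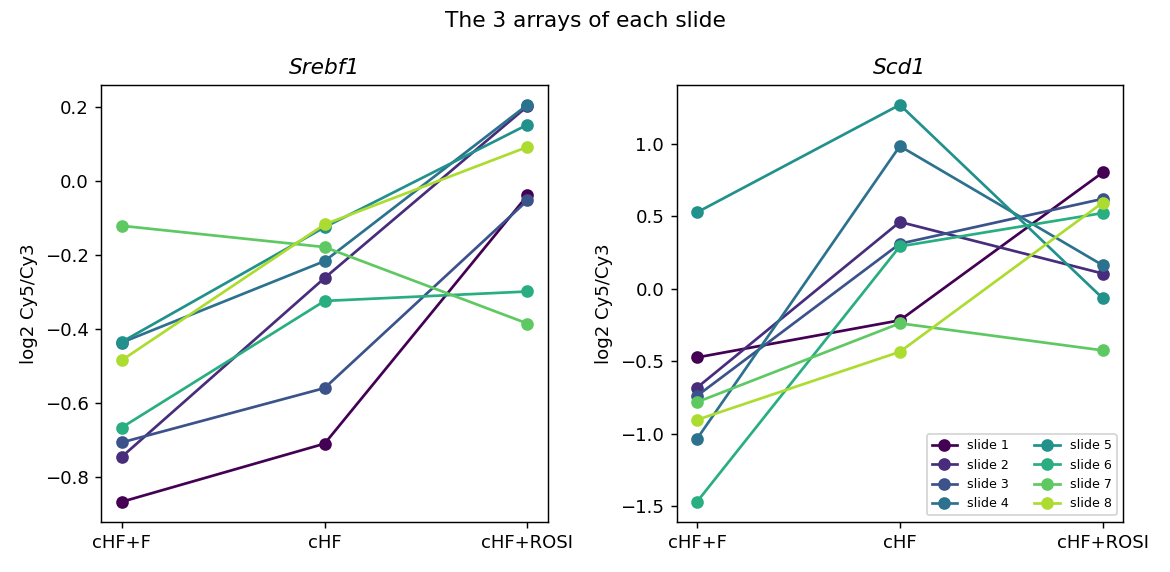
Log2 Cy5/Cy3 ratio (vertical axes) of Srebf1 and Scd1 on the 3 arrays of each slide, with lines joining arrays of 1 slide from cHF+F over cHF to cHF+ROSI. Scd1 is lower in cHF+F than in cHF on 8 of 8 slides, and in Srebf1 slide 7 runs opposite to the other slides.

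The second desaturase, Scd2, had no difference with an unadjusted p under 0.05. Probed at chr19:44359845-44359904 (mm8), its log2 ratio ran from -0.58 to 0.42 (median -0.20) in cHF, from -0.42 to 0.55 (median -0.01) in cHF+F and from -0.59 to 0.45 (median 0.10) in cHF+ROSI, so that the 3 groups overlapped widely. Its difference in cHF+F versus cHF was 0.15 (interval -0.18 to 0.47; limma adjusted p = 0.952). In cHF+ROSI versus cHF it was 0.21 (interval -0.11 to 0.54; limma adjusted p = 0.996), and from Cy5 alone it was 0.38, with an unadjusted p under 0.05 in that setting only (limma adjusted p = 0.798). Elovl6, which lengthens palmitate before desaturation and was probed at chr3:129630352-129630411 (mm8), was close to the detection limit, and its differences were 0.01 (interval -0.22 to 0.24) in cHF+F versus cHF, 0.13 (interval -0.10 to 0.35) in cHF+ROSI versus cHF and -0.12 (interval -0.34 to 0.11) in cHF+F versus cHF+ROSI. Without the cHF+ROSI array of slide 7 the unadjusted p of Elovl6 was under 0.05 in both comparisons with cHF+ROSI. With processed signals it was so in cHF+ROSI versus cHF, and no adjusted p passed.

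Fasn, the synthase that gives the pathway its name, varied more within groups than between them. At its probe (mm8, chr11:120623236-120623295) the log2 ratio ran from -0.43 to 0.41 (median -0.05) in cHF, from -0.78 to 1.09 (median -0.23) in cHF+F and from -0.91 to 0.53 (median 0.01) in cHF+ROSI. The differences were -0.01 (interval -0.42 to 0.40; limma adjusted p = 0.997), 0.07 (interval -0.34 to 0.48; limma adjusted p = 0.996) and, for cHF+F versus cHF+ROSI, -0.08 (interval -0.49 to 0.33; limma adjusted p = 0.957). The highest and the lowest cHF+F array lay outside the cHF range.

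Acly, which supplies acetyl-CoA, gave the narrowest limits of the set. Its differences were 0.05 (interval -0.06 to 0.16) in cHF+F versus cHF, 0.02 (interval -0.09 to 0.13) in cHF+ROSI versus cHF and 0.03 (interval -0.08 to 0.13) in cHF+F versus cHF+ROSI. The signal of the Acly probe, at chr11:100293293-100293351 (mm8), was 4.31 times background in Cy5. In Cy3 it was 2.33 times background, close to the limit of 2 for testing, which limits what the narrow intervals can say.

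Acacb, the carboxylase of the mitochondrial surface and the main form of muscle, was measured by 2 probes. The brighter probe, at chr5:114511625-114511685 (mm8), ran from -0.35 to 0.05 (median -0.23) in cHF, from -0.45 to -0.11 (median -0.30) in cHF+F and from -0.68 to 0.03 (median -0.36) in cHF+ROSI. Its value was lower on 7 of 8 slides in cHF+ROSI than in cHF, with a difference of -0.18 (interval -0.33 to -0.02; limma adjusted p = 0.996), and 4 of 8 cHF+ROSI arrays lay below all cHF arrays. The unadjusted p was no longer under 0.05 in 5 of 24 fits without 1 array (cHF of slide 1, 2 or 3, cHF+ROSI of slide 2 or 7) and in 8 of 15 other settings. From Cy5 alone this difference was -0.06 (limma adjusted p = 0.89). The dimmer probe gave -0.10 (interval -0.27 to 0.06; limma adjusted p = 0.996). In cHF+F versus cHF the probes gave -0.10 and -0.13 (limma adjusted p = 0.912 and 0.837).

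The 4 probes of Acaca, the cytosolic carboxylase, did not reach the limit of 2 times background in both channels. The brightest was well above background on 22 of 24 arrays and the other 3 on 6, 7 and 8 arrays. Without the filter on dim probes, that brightest Acaca probe differed by 0.20 in cHF+F versus cHF (interval 0.07 to 0.34), with an unadjusted p under 0.05 (limma adjusted p = 0.335). The others differed by -0.06 to 0.05, so that the probes did not give 1 direction. In cHF+ROSI versus cHF the brightest differed by 0.14, with an unadjusted p under 0.05 (limma adjusted p = 0.558), and the others by 0.03 to 0.10, all higher.

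Mlxipl, which encodes ChREBP, and Thrsp were close between groups. The brighter Mlxipl probe, at chr5:135422262-135422321 (mm8), differed by 0.04 (interval -0.15 to 0.23) in cHF+F versus cHF and by -0.06 (interval -0.26 to 0.13) in cHF+ROSI versus cHF, and the dimmer one by 0.01 (interval -0.12 to 0.13) and -0.09 (interval -0.21 to 0.03). Thrsp, probed at chr7:97292244-97292303 (mm8), differed by 0.05 (interval -0.12 to 0.22) in cHF+F versus cHF, by 0.14 (interval -0.03 to 0.31; limma adjusted p = 0.996) in cHF+ROSI versus cHF and by -0.09 (interval -0.26 to 0.08) in cHF+F versus cHF+ROSI. Without the cHF array of slide 5 the unadjusted p of Thrsp in cHF+ROSI versus cHF was under 0.05.

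**Figure D3:**
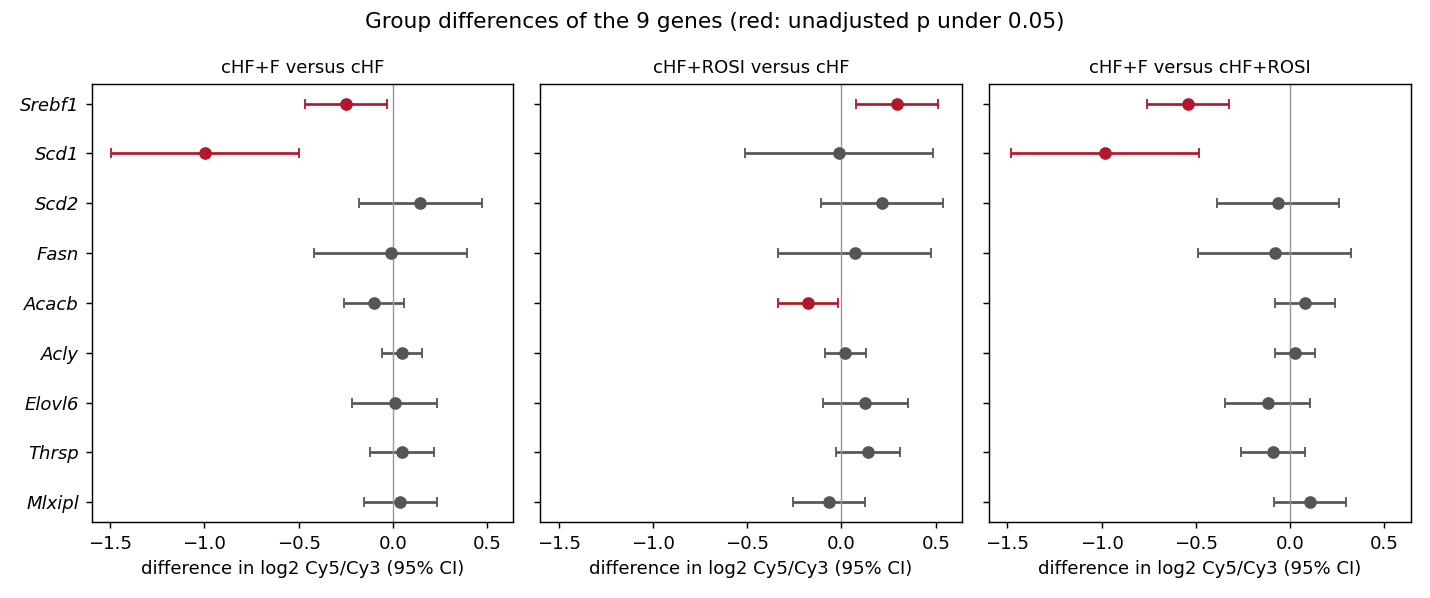
Difference in log2 Cy5/Cy3 (horizontal axes) of the 9 genes in the 3 comparisons, points with 95% confidence intervals from limma, and red marking an unadjusted p under 0.05. Scd1 stands at -0.998 and -0.98 in both comparisons that involve cHF+F and at -0.01 in the one that does not, whereas Srebf1 has intervals that leave out 0 in all 3.

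Adipocyte transcripts moved together with several of the genes from mouse to mouse. The mean log2 ratio of the 8 measurable adipocyte markers (of the 10 listed, with Adipoq, Lep and Plin1 among them) ran from -0.91 to 0.63 in cHF, from -1.17 to 0.92 in cHF+F and from -0.78 to 0.28 in cHF+ROSI, so that the groups overlapped while single mice differed several-fold. Of the 8 markers, 0 differed between any groups at an unadjusted p under 0.05, and their median difference was -0.10 in cHF+F versus cHF and 0.00 in cHF+ROSI versus cHF.

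Over the 24 arrays this adipocyte level correlated with Fasn (Pearson r = 0.70, Spearman rho = 0.68), Scd1 (r = 0.66, rho = 0.67), Elovl6 (r = 0.66, rho = 0.74), Scd2 (r = 0.60, rho = 0.61) and Thrsp (r = 0.52, rho = 0.48). The permutation p-values of r, adjusted by Benjamini-Hochberg over the 9 genes, were 0.00117 for Fasn, 0.00147 for Scd1 and Elovl6, 0.00475 for Scd2 and 0.0160 for Thrsp. Those of rho were 0.00153 for Fasn and Scd1, 0.000810 for Elovl6, 0.00416 for Scd2 and 0.0364 for Thrsp. The other 4 genes did not pass, with r = 0.20 for Srebf1, 0.19 for Acacb, -0.24 for Acly and -0.02 for Mlxipl. The relation of Scd1 held within each group, with r = 0.84 in cHF, 0.85 in cHF+F and 0.92 in cHF+ROSI (exact permutation p = 0.0130, 0.0109 and 0.00184, n = 8 each), and it remained at r = 0.62 without the 2 arrays with the most extreme adipocyte level. With slide means removed it was r = 0.63 (adjusted permutation p = 0.0272). Fasn, Elovl6 and Scd2 also passed with slide means removed (r = 0.66, 0.84 and 0.58), while Thrsp did not (r = 0.40; adjusted permutation p = 0.258). Without the 2 arrays with the most extreme adipocyte level r was 0.52 for Fasn, 0.67 for Elovl6, 0.42 for Scd2 and 0.41 for Thrsp, of which the last 2 no longer passed (adjusted permutation p = 0.0832 each). For Scd2, Fasn and Thrsp r was 0.03, 0.33 and -0.42 in cHF+ROSI alone.

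**Figure D4:**
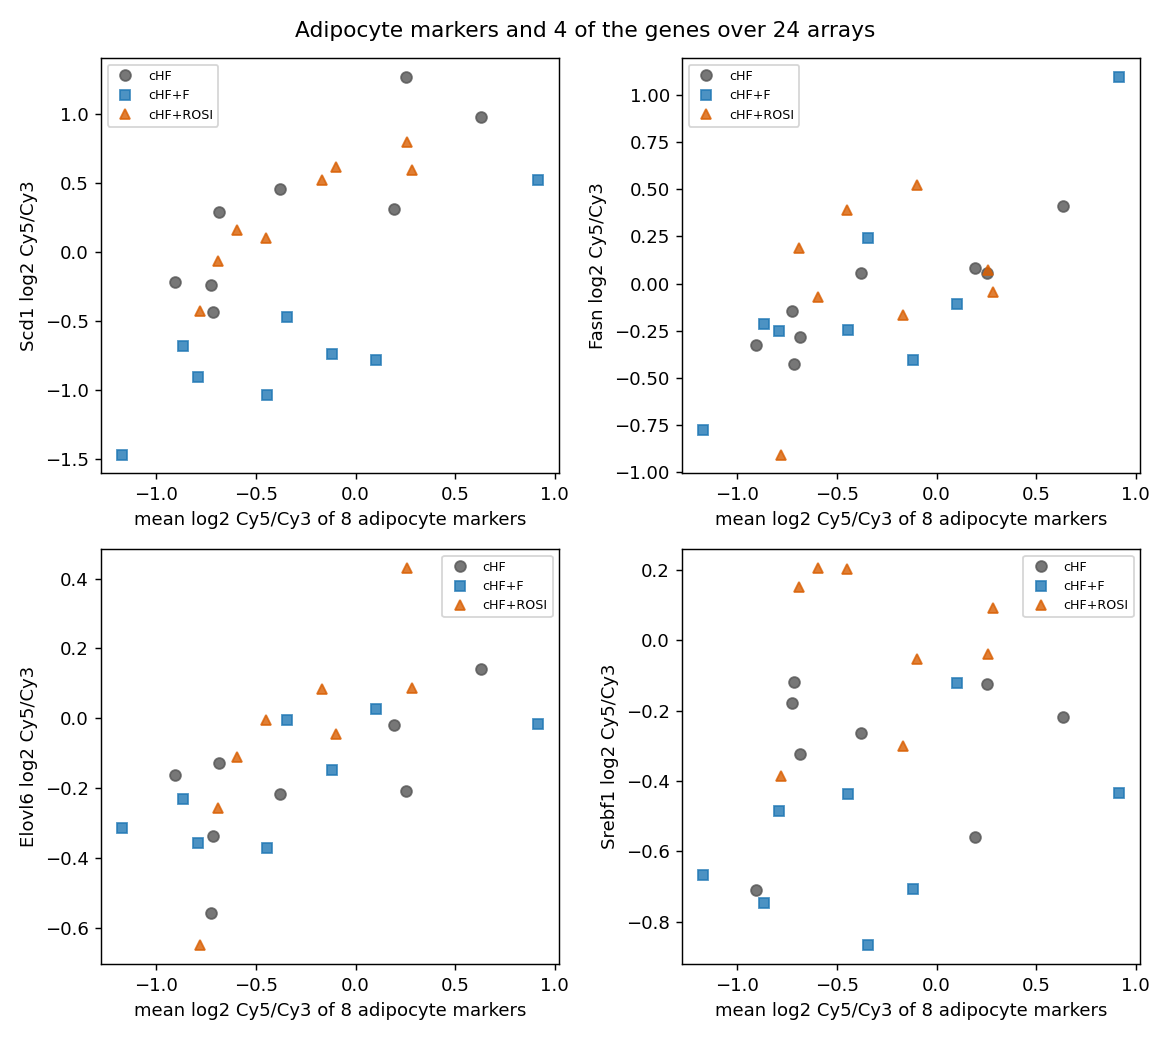
Log2 Cy5/Cy3 ratio of Scd1, Fasn, Elovl6 and Srebf1 (vertical axes) against the mean log2 Cy5/Cy3 ratio of 8 adipocyte markers (horizontal axes), 1 point per array, with symbols for the 3 diet groups. Scd1 climbs with the adipocyte markers in each group (r = 0.84, 0.85 and 0.92), and the cHF+F points lie below the others at a like marker level.

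The Scd1 difference was also fitted with the adipocyte level of each array as a covariate, a fit chosen after these values had been seen. It then was -0.96 (SE 0.13; interval -1.22 to -0.69) in cHF+F versus cHF, with a limma adjusted p of 0.00145, and Scd1 was the 1 probe of 15958 (0.00627%) with an adjusted p under 0.05. In cHF+F versus cHF+ROSI it was -0.93 (interval -1.20 to -0.67; limma adjusted p = 0.00222), 1 of 2 probes (0.0125%), the other being Hp (0.79), haptoglobin of the liver marker list. Without the covariate Hp was the 1 measurable liver marker that was higher in that comparison, while 7 were lower. The call of Scd1 in both comparisons held in 24 of 24 fits that left out 1 array each, with adjusted p-values of at most 0.00667 and 0.0104. Each of these fits used the same covariate, chosen after its correlation with Scd1 in these arrays was known. They are therefore no independent support for the call. In cHF+ROSI versus cHF Scd1 differed by -0.02 (interval -0.29 to 0.24). The covariate left Srebf1 at -0.24 and 0.30 against cHF and at -0.54 in cHF+F versus cHF+ROSI (limma adjusted p = 0.651, 0.961 and 0.139). Whether the adipocyte transcripts came from fat within or around the muscle was not tested.

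Of the other tissues, liver markers had a median difference of 0.66 in cHF+ROSI versus cHF, with 2 of 8 higher (Apoa2, 0.69, and Mup1, 1.51) and 1 lower (Hp, -0.76) at an unadjusted p under 0.05, and 0.31 in cHF+F versus cHF. The mean liver level ran from -2.42 to -0.28 in cHF, from -1.45 to 0.63 in cHF+F and from -2.47 to 1.28 in cHF+ROSI. Its correlation with the 9 genes ranged from r = -0.33 for Acacb to 0.18 for Srebf1, and none of the 9 passed (smallest adjusted permutation p = 0.728). Among blood markers, Hba-a1 differed by -0.49 in cHF+ROSI versus cHF (limma adjusted p = 0.996) and by 0.47 in cHF+F versus cHF+ROSI (limma adjusted p = 0.74). The muscle markers had a median difference of -0.13 in cHF+ROSI versus cHF and 0.21 in cHF+F versus cHF+ROSI, with 0 of 8 at an unadjusted p under 0.05. The part of liver, blood and muscle transcripts in the differences of Srebf1 was not tested.

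The targets were next compared with Srebf1 itself over the 24 arrays. Scd1 correlated with Srebf1 at r = 0.49 (rho = 0.48), with a permutation p of 0.0160 and an adjusted p of 0.128 over the 8 relations. For Thrsp r was 0.42 (rho = 0.41; permutation p = 0.0380, adjusted p = 0.152), for Fasn 0.28, for Scd2 0.25, for Elovl6 0.21, for Acly -0.15, for Acacb -0.24 and for Mlxipl -0.26. The adjusted permutation p-values of rho were 0.151 for Scd1, Thrsp, Fasn and Mlxipl and at least 0.270 for the rest, so 0 of 8 relations passed.

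The relation of Scd1 and Srebf1 was weaker among mice of 1 diet. With group means removed r was 0.16 (permutation p = 0.482), and it was 0.27 in cHF, 0.08 in cHF+F and 0.12 in cHF+ROSI alone (exact permutation p = 0.530, 0.861 and 0.774, n = 8 each). With slide means removed it was 0.58 (adjusted permutation p = 0.0764), and without the 2 arrays farthest from the median of Srebf1 it was 0.49. For Thrsp r was 0.40 with group means removed. Within cHF+F, the brighter Mlxipl probe ran opposite to Srebf1 (r = -0.83, exact permutation p = 0.00995, n = 8). It did so within cHF too (r = -0.71, exact permutation p = 0.0496), while in cHF+ROSI r was 0.37 (exact permutation p = 0.372). The brighter Acacb probe ran the same way within cHF (r = -0.79, exact permutation p = 0.0186). Over the 24 arrays the dimmer Acacb probe had r = 0.09 with Srebf1, against -0.24 for the brighter one. The dimmer probes of Mlxipl and Acacb were not compared with Srebf1 within groups. No relation within a group passed after adjustment over its 8 relations, the smallest adjusted exact permutation p being 0.0796. When arrays were centred on their median in place of loess, 6 of the 8 relations passed, with r = 0.64 for Scd1, and r turned to 0.75 for Acacb and 0.67 for Mlxipl.

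**Figure D5:**
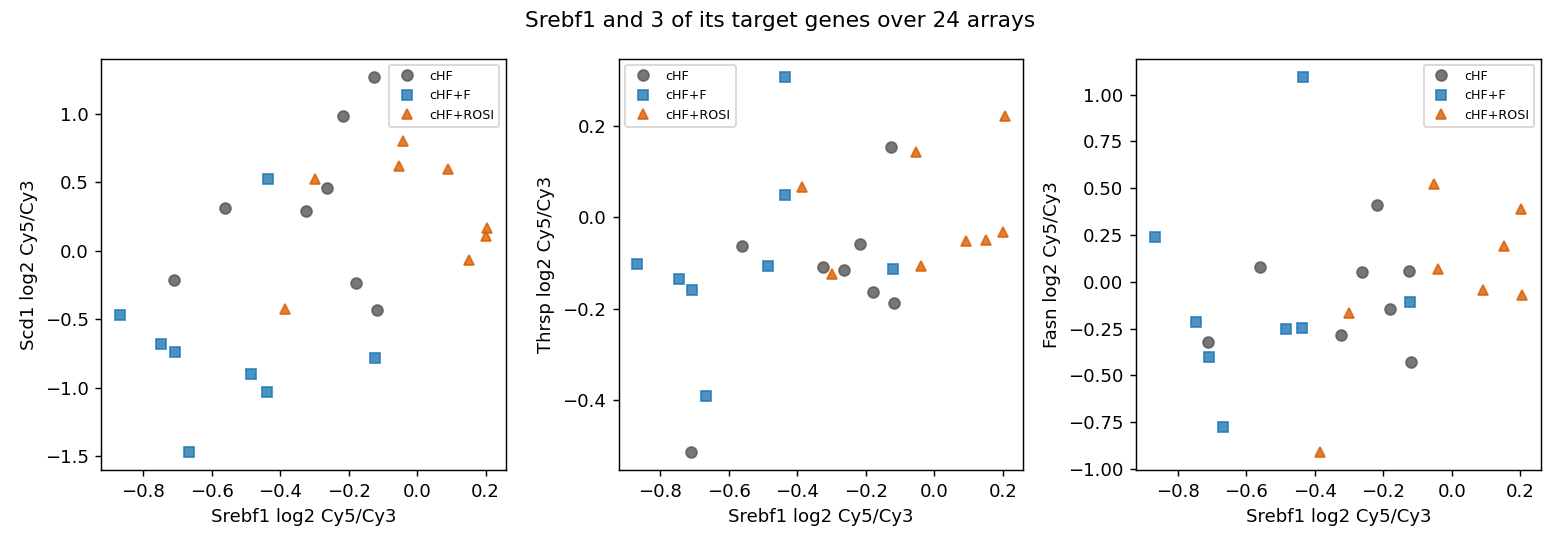
Log2 Cy5/Cy3 ratio of Scd1, Thrsp and Fasn (vertical axes) against that of Srebf1 (horizontal axes) over 24 arrays, with symbols for the 3 diet groups. Most cHF+F points sit low on both axes for Scd1 (r = 0.49 over all arrays, 0.16 with group means removed). The exceptions are the cHF+F arrays of slide 5 (Scd1 at 0.53) and slide 7 (Srebf1 at -0.12). The spread for Fasn is wide (r = 0.28).

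Among all measured genes, those whose log2 ratio was most like that of Srebf1 over the 24 arrays were Car3 (r = 0.71), carbonic anhydrase 3 of muscle and fat, the endothelial gene Egfl7 (r = 0.65), the intermediate filament gene Nes (r = 0.65), Sh2b3 (r = 0.63), an adaptor of cytokine signalling, and Vwa1 (r = 0.63), which encodes a matrix protein. Scd1 was 69th and Thrsp 222nd in this order. The genes most like Scd1 were Trarg1 (r = 0.84), which regulates glucose transporter traffic in fat, Aqp7 (r = 0.81), the glycerol channel of fat, Carhsp1 (r = 0.79), the endothelial adhesion gene Icam2 (r = 0.78) and Pltp (r = 0.76), a phospholipid transfer protein. Fasn was 160th (r = 0.59), Elovl6 271st (r = 0.54) and Srebf1 454th in the order for Scd1. With group means removed, r with Scd1 was 0.85 for Trarg1, 0.76 for Fasn, 0.66 for Scd2 and 0.66 for Elovl6, against 0.16 for Srebf1.

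Around these genes, 59 others of the pathway were listed and 50 were measurable. With an unadjusted p under 0.05 there were 4 higher and 3 lower in cHF+F versus cHF, 0 in cHF+ROSI versus cHF, and 2 higher and 3 lower in cHF+F versus cHF+ROSI, with 0 passing after adjustment. Over all probes 6.86%, 4.7% and 6.67% met this limit. The medians of the 50 were -0.01, 0.01 and -0.02. Among the 19 measurable regulators, which included the SREBP escort Scap, its retention proteins Insig1 and Insig2, the liver X receptors Nr1h2 and Nr1h3 and the related factor Srebf2, the 1 gene past this limit was Prkaa1, a catalytic subunit of AMP-activated protein kinase, at -0.12 in cHF+F against both other groups (limma adjusted p = 0.661 and 0.74). Insig1, itself a target of SREBP, differed by 0.01 (limma adjusted p = 0.994) in cHF+F versus cHF.

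None of the 10 measurable genes for substrate and NADPH supply met the limit in any comparison. Of 13 genes that handle acyl chains, Fads1, the delta-5 desaturase of polyunsaturated fatty acids, was at 0.10 ± 0.13 in cHF+F against -0.11 ± 0.14 in cHF (SD, n = 8; difference 0.21, limma adjusted p = 0.473). In the same comparison Tecr, an enzyme of chain elongation, differed by 0.19 (limma adjusted p = 0.568) and Acsl1, which activates fatty acids, by -0.30 (limma adjusted p = 0.55). Acsl3, of the same family, differed by -0.28 in cHF+F versus cHF+ROSI (limma adjusted p = 0.724).

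Of 5 genes for esterification, Lpin1, a phosphatidate phosphatase, was higher in cHF+F by 0.25 over cHF (limma adjusted p = 0.641) and by 0.35 over cHF+ROSI (limma adjusted p = 0.538), and Dgat2, which makes triglycerides, differed by -0.34 in cHF+F versus cHF (limma adjusted p = 0.715). Mid1ip1, a relative of Thrsp that activates the carboxylases, was at -0.39 ± 0.21 in cHF+F, -0.13 ± 0.26 in cHF and 0.05 ± 0.35 in cHF+ROSI (SD, n = 8), the same order of means as Srebf1, with a difference of -0.44 in cHF+F versus cHF+ROSI (limma adjusted p = 0.50). Trib3, a pseudokinase that promotes degradation of acetyl-CoA carboxylase, was at 0.25 ± 0.57 in cHF+F against -0.37 ± 0.24 in cHF, a difference of 0.61 (limma adjusted p = 0.388), and differed by 0.45 from cHF+ROSI (limma adjusted p = 0.661). Both comparisons with cHF+F rest on the same 8 cHF+F arrays.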

How the data were processed

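Gastrocnemius RNA of 24 mice was hybridised on two-colour arrays, without dye swaps. The deposited scanner output gives spot and background intensity in both channels (Feature Extraction 10.5.1.1 per the file headers), and the authors also deposited a table of normalized log2 values of cHF and cHF+F, used as an alternative, with 8 columns of another group not used. Median intensity was corrected by normexp (offset 50), ratios were normalized by loess (span 0.3), flagged spots were left out, and probes needed a signal of 2 times background in both channels and 4 unflagged arrays per group. Groups came from the labels. The 3 groups were fitted together by limma 3.58.1 in R 4.3.3, two-sided, with Benjamini-Hochberg adjustment over all kept probes. The brightest probe stood for a gene, and other genes were named at an unadjusted p under 0.05 or as the 5 most correlated. Correlations used 100000 permutations, or all orders within 8 arrays, in Python 3.11.15. Arrays have no read depth, and their number limits the precision. The members and lists were chosen with earlier results of these data known, and the study had itself picked Scd1 from these mice. The limma step was tested on simulated data drawn independently for each array, without a slide effect or the adipocyte covariate. The slide is the number of an array in its group.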

Additional observations from a re-analysis of the deposited data

Results flagged for a closer look

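Of 33 sets of 8 arrays (11 probes in 3 groups), 2 held an array that stood far from the other 7, where chance gives about 1 in 20. The Acly value of the cHF+ROSI array of slide 4 was 0.20, with the next at 0.01, and this was the array with 91.1% of spots well above background. The dimmer Acacb probe was at 0.49 on the cHF array of slide 7, with the next at 0.08. Without the cHF+ROSI array of slide 4 the difference of Acly in cHF+ROSI versus cHF was -0.01 in place of 0.02.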

How the results depend on the processing

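No member gene was called under the slide as a replicate block, where Scd1 was at -0.998 in cHF+F versus cHF (limma adjusted p = 0.120) and Srebf1 at -0.54 in cHF+F versus cHF+ROSI (limma adjusted p = 0.0693), nor under the other planned settings with all arrays. Over all probes of cHF+F versus cHF, 6 (0.0376%) were called under the block, 12 (0.0752%) with array weights, 2 (0.0125%) with mean spot signals and 3 of 41174 (0.00729%) without the filter, and 0 in the other such settings and in both other comparisons. Same-numbered arrays, which shared a slide, deviated together with a median correlation of 0.47, 0.26 and 0.11 in the 3 comparisons and a lowest of -0.11. Leaving out each array in turn, Scd1 ranged from -1.17 to -0.86 in cHF+F versus cHF, from -0.12 to 0.12 in cHF+ROSI versus cHF and from -1.16 to -0.87 in cHF+F versus cHF+ROSI, and Srebf1 from -0.31 to -0.20, from 0.24 to 0.35 and from -0.60 to -0.50. The count of called members then ranged from 0 to 1 in cHF+F versus cHF+ROSI (Srebf1), with 1 probe (0.00627%) called in all without the cHF+F array of slide 7 and 2 (0.0125%) without the cHF+ROSI array of slide 7, and was 0 in the other such fits. With the adipocyte covariate, added after seeing the data, the count was 1 in both comparisons with cHF+F (Scd1, -0.96 and -0.93). With median centring in place of loess, 6 of 8 relations with Srebf1 passed against 0, with r = 0.64 for Scd1, and r turned to 0.75 for Acacb and 0.67 for Mlxipl. The cause was not tested. From the authors' table Scd1 was at -1.02 in cHF+F versus cHF. From processed signals Elovl6 was at 0.43 and 0.67 in cHF+F and cHF+ROSI versus cHF, the latter with an unadjusted p under 0.05. Signals near background limit what can be said of Elovl6, Acly and Acaca.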
